A study of Mus musculus with 28 samples.

Results

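The genes described were 9 regulators of pluripotency. A core group held Pou5f1, Sox2, Sall4 and Utf1 (4 genes), and a formative group held Fgf5, Otx2, Pou3f1, Lef1 and Zic2 (5 genes). They were taken by name from the 37991 gene records of the count files, with earlier results of these data known. The cells were naïve mouse embryonic stem cells (mESCs) labelled J1, of strain 129S4/SvJae, grown with LIF and 2i, which inhibits MEK and GSK3. Wild type (WT) cells were compared with a knockout of Dnmt1, Dnmt3a and Dnmt3b (DNMT TKO) and a knockout of Tet1, Tet2 and Tet3 (TET TKO). Every culture carried a puromycin-selected lentiviral hairpin for 5 days, either an empty control (shEmpty) or one against Kap1 (shKap1), whose gene is Trim28. WT and DNMT TKO gave 3 RNA libraries a group and TET TKO 2, 16 in all. Each genotype was 1 cell line as far as the labels tell, so a difference between genotypes and a difference between lines cannot be told apart. Peaks of H3K4me3 and H3K27me3 and counts of 5-hydroxymethylcytosine (5hmC) reads came from WT cells.

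Embryonic stem cells hold their identity through a small set of transcription factors. OCT4, encoded by Pou5f1, binds DNA with SOX2 on joint motifs and keeps up the genes of the undifferentiated state, with SALL4 and UTF1 as chromatin-bound partners. The formative state is the step that epiblast cells take after the naïve state: OTX2 and OCT6, encoded by Pou3f1, help OCT4 to new enhancers, FGF5 is a secreted growth factor and a classical marker of the primitive ectoderm, LEF1 is a DNA-binding partner of β-catenin, and ZIC2 is a zinc finger factor of epiblast enhancers. Medium with 2i blocks ERK signals and relieves β-catenin from GSK3, and therefore holds formative genes low. KAP1 is the corepressor that KRAB zinc finger proteins bring to transposable elements, DNMT enzymes methylate cytosine and TET enzymes oxidise 5-methylcytosine to 5hmC.

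The starts of the members differed in CpG content, the substrate of DNMT and TET enzymes. The 250 bases before the annotated start are shown for 4 members. These are Pou5f1, the most abundant, Sox2, which passed the test in most comparisons, and Fgf5 and Otx2, the formative members that differed most between lines. CpG dinucleotides are in capitals, sequences run 5′ to 3′ in the direction of transcription, and coordinates and letters are of NCBIM37 (mm9), the build of the count files.
Pou5f1, chr17:35642732-35642981, plus strand: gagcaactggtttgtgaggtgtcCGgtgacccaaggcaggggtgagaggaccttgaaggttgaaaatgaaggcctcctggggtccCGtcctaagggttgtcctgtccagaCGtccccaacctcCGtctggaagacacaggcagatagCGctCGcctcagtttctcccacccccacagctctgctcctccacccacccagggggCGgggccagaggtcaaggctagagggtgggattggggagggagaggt
Sox2, chr3:34548677-34548926, plus strand: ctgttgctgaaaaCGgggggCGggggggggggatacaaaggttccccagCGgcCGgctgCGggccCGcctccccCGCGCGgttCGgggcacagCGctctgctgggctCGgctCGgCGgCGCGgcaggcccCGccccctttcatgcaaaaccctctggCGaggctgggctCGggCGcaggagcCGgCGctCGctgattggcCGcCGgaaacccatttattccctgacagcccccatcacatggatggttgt
Fgf5, chr5:98682953-98683202, plus strand: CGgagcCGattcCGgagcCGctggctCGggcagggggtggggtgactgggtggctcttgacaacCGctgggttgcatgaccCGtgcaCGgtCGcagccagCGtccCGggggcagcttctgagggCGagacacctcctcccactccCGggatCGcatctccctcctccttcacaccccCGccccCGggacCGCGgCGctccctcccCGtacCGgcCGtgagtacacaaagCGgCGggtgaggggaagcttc
Otx2, chr14:49287320-49287569, minus strand: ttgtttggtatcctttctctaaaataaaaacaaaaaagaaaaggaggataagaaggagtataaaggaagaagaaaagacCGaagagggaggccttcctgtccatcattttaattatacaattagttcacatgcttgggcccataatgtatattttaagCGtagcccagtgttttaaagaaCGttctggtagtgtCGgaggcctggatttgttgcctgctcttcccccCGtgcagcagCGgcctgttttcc
The Sox2 stretch held 25 CpG and that of Fgf5 24, against 7 for Pou5f1 and 6 for Otx2. Over 500 bases on each side of the start, the ratio of observed to expected CpG was 0.335 for Pou5f1, 0.407 for Sall4 and 0.522 for Otx2, all below the median of 0.619 over 20316 tested genes with sequence. It was above that median for the other members, from 0.653 for Pou3f1 to 0.925 for Zic2. Low and high CpG starts therefore occurred in both groups. Otx2 was the only low formative member, and its H3K4me3 peaks in WT began 273 and 406 bases past the annotated start. The octamer ATGCAAAT, the SOX element CATTGT and the TCF/LEF element CTTTGAT were searched on both strands of the same 250 bases. They were present before 1.46%, 7.67% and 2.75% of those genes, respectively, and before 0 of the 9 members, which says only that these letters were not in this window.

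The 16 RNA libraries held 18108431 to 29373696 reads on genes, and 20321 genes whose reads summed to 16 or more entered the test. Levels are CPM, counts divided by the library size after TMM scaling, which removes differences in library composition. Trim28 fell from 1752 ± 207 CPM to 165 ± 21.9 CPM (SD, n = 3) in WT. In DNMT TKO it fell from 1869 ± 197 to 427 ± 91.5 CPM (n = 3), and in TET TKO from 1835 ± 89.8 to 166 ± 3.84 CPM (n = 2). The Trim28 change was smaller in DNMT TKO than in WT by 1.28 on the log2 scale (SE 0.21, edgeR adjusted p = 0.000802). All 8 embryonic stem cell markers, of which Pou5f1 and Sox2 are 2, averaged at least 1 CPM in every group. They summed to 4548 to 4770 CPM in WT shEmpty and to 3009 to 3099 CPM in WT shKap1, the lowest group. Summed fibroblast markers, 8 genes of which 5 or 6 averaged under 1 CPM in each group, went from 7.92 to 11.6 CPM in DNMT TKO shEmpty to 20.8 to 23.1 CPM in DNMT TKO shKap1, without overlap, and were between 7.94 and 16.6 CPM in the other groups. Neural markers (6 of 8 tested) summed to 137 to 181 CPM, with 3 or 4 of them under 1 CPM. By single neural genes, 2 rose and 1 fell by edgeR adjusted p in the WT knockdown (median log2 1.08). In DNMT TKO 3 rose and 0 fell (median 1.00), and in TET TKO 2 rose and 0 fell (median 0.45), so the sum does not show these changes. Endoderm markers (7 of 8) went in sum from 7.46 to 10.1 CPM to 12.3 to 15.9 CPM in DNMT TKO, and held 14.0 to 18.6 CPM in the other lines. Mesoderm markers (8) were lower in sum with shKap1 in all 3 lines without overlap. They summed to 26.2 to 30.5 CPM with shEmpty and 13.9 to 16.8 CPM with shKap1 in WT, to 23.0 to 27.1 and 12.7 to 19.3 CPM in DNMT TKO, and to 24.9 to 25.6 and 18.2 to 23.7 CPM in TET TKO. By single mesoderm genes, 2 fell and 1 rose by edgeR adjusted p in WT (median log2 -0.59). In DNMT TKO 2 fell and 1 rose (median 0.11), and in TET TKO 1 fell and 0 rose (median -0.26). Trophoblast markers (6 of 8) went from 44.0 to 66.7 CPM to 80.2 to 87.4 CPM in WT, without overlap, and summed to 12.7 to 29.9 CPM in DNMT TKO and 73.8 to 80.0 CPM in TET TKO. Markers of the 2-cell state (7 of 8 tested) went in sum from 318 to 325 CPM in TET TKO shEmpty to 831 to 834 CPM in TET TKO shKap1, and from 370 to 385 CPM to 498 to 510 CPM in WT. In DNMT TKO the summed ranges overlapped, at 357 to 382 CPM with shEmpty and 377 to 431 CPM with shKap1. Abundant markers outweigh the others in these sums. Gene by gene, 6 of the 7 rose at least 2-fold by edgeR adjusted p in WT (median log2 3.15), 5 in DNMT TKO (median 2.31) and 6 in TET TKO (median 6.02). The part of these markers in the members' values was not tested. In bulk RNA, fewer cells that express a gene and less RNA per cell cannot be told apart. By the study's methods, the RNA libraries of a group were made in separate experiments.

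The core members were more abundant than the formative ones. Divided by exonic length, mean levels in WT shEmpty were 372 CPM per kb for Pou5f1, 134 for Sox2, 57.7 for Sall4 and 35.8 for Utf1, and the same scale gave 13.1 for Zic2, 0.511 for Lef1, 0.218 for Otx2 and 0.202 for Fgf5. The median over all genes tested was 2.78 CPM per kb. Every core member thus lay above all formative members that could be measured, with Pou5f1 at percentile 99.7 of genes per kb and Fgf5 at percentile 23.6. Utf1 of the core stood nearest to Zic2 of the formative group. In DNMT TKO shEmpty the order within the formative group was Zic2 at 7.19, Otx2 at 1.91, Lef1 at 0.986 and Fgf5 at 0.0181 CPM per kb.

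**Figure D1:**
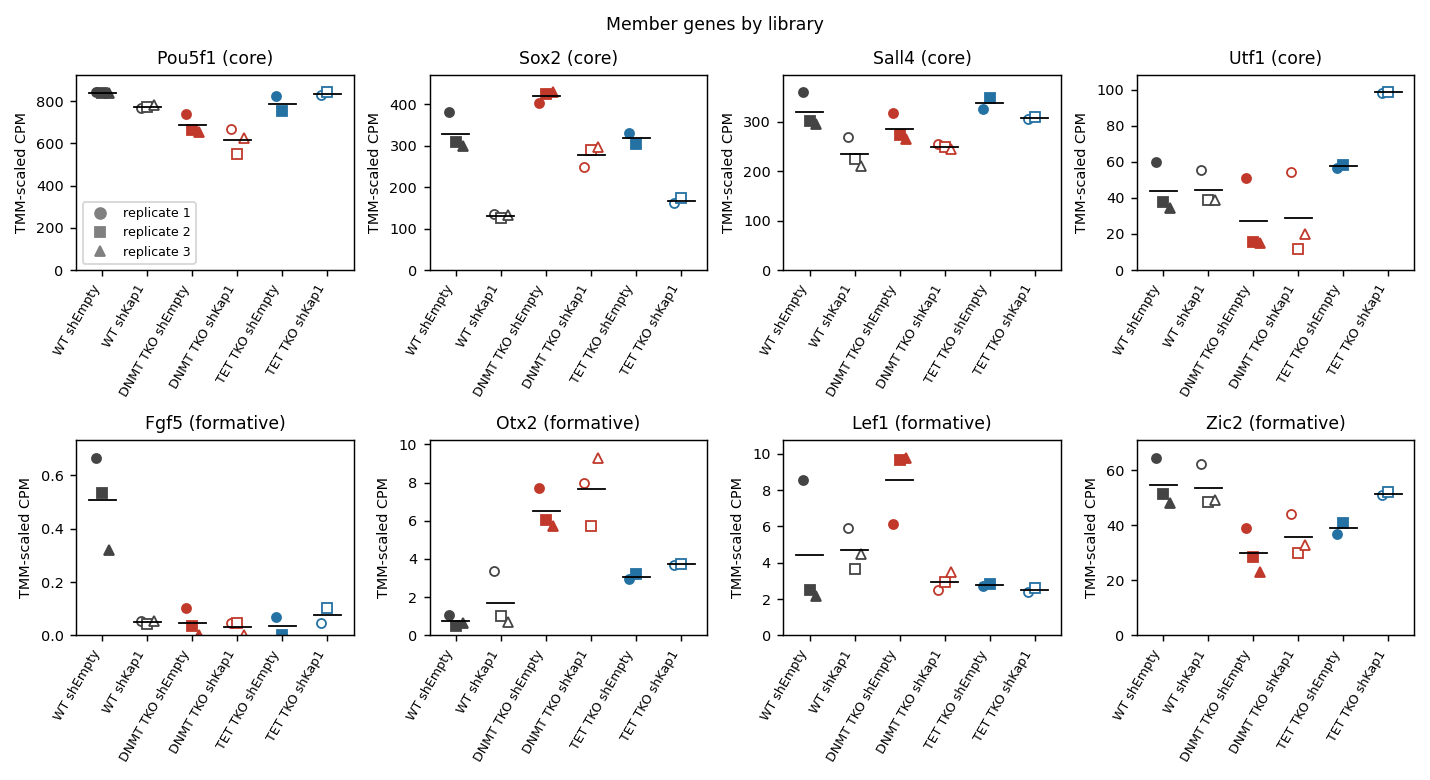
TMM-scaled CPM (vertical axes, linear from 0, each gene on its own scale) of 8 members in the 16 RNA libraries, by genotype and hairpin. Each symbol is 1 library, its shape gives the replicate number, filled symbols are shEmpty and open symbols shKap1, and bars are group means. Sox2 is lower with shKap1 in all 3 genotypes, Fgf5 stands clear of 0 only in WT shEmpty, and replicate 1 is the highest library for Utf1 in each WT and DNMT TKO group.

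Sox2, at chr3:34548927-34551383 on the plus strand, encodes the HMG-box partner of OCT4 and was the one member that passed the test in all 3 knockdowns. Its WT shEmpty libraries held 380, 309 and 299 CPM and its WT shKap1 libraries 134, 125 and 132 CPM. DNMT TKO went from 404, 424 and 429 CPM to 248, 290 and 296 CPM. TET TKO went from 330 and 305 CPM to 161 and 173 CPM. No shKap1 library overlapped a shEmpty library in any genotype, and WT shKap1 lay below every other library of the study. The fall was 2.53-fold in WT (log2 -1.34, SE 0.08, edgeR adjusted p = 9.13e-10), 1.51-fold in DNMT TKO (log2 -0.59, SE 0.08, adjusted p = 2.39e-05) and 1.9-fold in TET TKO (log2 -0.93, SE 0.10, adjusted p = 1.9e-06). The Sox2 fall was smaller in DNMT TKO than in WT by 0.75 on the log2 scale (SE 0.12, adjusted p = 0.0002). The same difference for TET TKO was 0.41 (SE 0.13, edgeR adjusted p = 0.0543), on the edge of the threshold. It passed with DESeq2 (adjusted p = 0.037), with no composition scaling (adjusted p = 0.0484) and without the number 1 libraries of WT and DNMT TKO (log2 0.32, adjusted p = 0.000285), an alternative added after the values were seen. Residual Trim28 was also higher in DNMT TKO shKap1 than in WT shKap1, 427 against 165 CPM, and its part in the Sox2 difference was not tested. Sox2 started higher in DNMT TKO shEmpty than in WT shEmpty, 419 ± 13.4 against 329 ± 44.3 CPM (n = 3 each, log2 0.35, SE 0.08, adjusted p = 0.00207), whereas TET TKO shEmpty at 318 ± 17.7 CPM (n = 2) overlapped WT.

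Pou5f1, the gene of OCT4 at chr17:35642982-35647721 on the plus strand, varied least. WT shEmpty libraries held 841, 837 and 836 CPM and WT shKap1 768, 772 and 779 CPM, so the groups did not overlap although the difference was 1.08-fold (log2 -0.12, SE 0.06, adjusted p = 0.143). DNMT TKO held 739, 664 and 656 CPM with shEmpty and 667, 549 and 624 CPM with shKap1, which overlapped. TET TKO held 823 and 753 CPM with shEmpty and 828 and 841 CPM with shKap1. With edgeR, TMM scaling, the filter of 16 reads and no block, none of the 3 knockdowns passed in Pou5f1, and the DNMT TKO value was on the edge of the threshold (log2 -0.16, adjusted p = 0.0546). It passed with the replicate number as a block over all libraries (adjusted p = 0.0254), with DESeq2 (adjusted p = 0.025), with limma-voom (adjusted p = 0.0471), with RLE scaling (adjusted p = 0.0321) and with both other filters on low counts (adjusted p = 0.0288 and 0.0173). The TET TKO value (log2 0.08, adjusted p = 0.471) passed only where the 4 TET TKO libraries were fitted alone (log2 0.12, adjusted p = 0.0459). Between lines, with TMM scaling, the filter of 16 reads and no block, Pou5f1 passed in 1 comparison, where DNMT TKO shEmpty was 1.22-fold lower than WT shEmpty (log2 -0.29, SE 0.06, adjusted p = 0.0011).

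Sall4, at chr2:168573832-168593443 on the minus strand, encodes a zinc finger factor that binds OCT4 and chromatin-modifying complexes. It held 360, 303 and 296 CPM in WT shEmpty and 270, 224 and 210 CPM in WT shKap1. It was the only member besides Sox2 and Fgf5 that passed in the WT knockdown, falling 1.36-fold (log2 -0.44, SE 0.09, adjusted p = 0.000693). In DNMT TKO it held 318, 274 and 265 CPM against 256, 249 and 244 CPM, and in TET TKO 327 and 349 CPM against 307 and 309 CPM. Both pairs of groups were separate and lower with shKap1, with log2 values of -0.19 (adjusted p = 0.112) and -0.13 (adjusted p = 0.407) that did not pass. The DNMT TKO value passed with the replicate block (log2 -0.19, adjusted p = 0.0269). The difference of the Sall4 knockdown effect from WT was 0.25 for DNMT TKO (adjusted p = 0.202) and 0.31 for TET TKO (adjusted p = 0.199). Neither passed with edgeR and no block, but both did with the split block (adjusted p = 0.0119 and 0.012). The split block was chosen after the values were seen. It also pairs the TET TKO libraries by number, although same-numbered TET TKO libraries did not deviate together (r -0.026).

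Utf1, at chr7:147129688-147131011 on the plus strand, encodes a chromatin-bound factor of pluripotent cells and is a target of OCT4 and SOX2. It passed in none of the 7 comparisons with edgeR and all libraries. Its level depended on the replicate number. In WT, replicate 1 held 60 CPM with shEmpty and 55.5 CPM with shKap1, and in DNMT TKO it held 50.9 and 54.6 CPM. The other replicates held 34.5 to 38.8 CPM in WT and 11.9 to 19.9 CPM in DNMT TKO. TET TKO libraries held 56.5 and 58.5 CPM with shEmpty and 98.4 and 98.6 CPM with shKap1, the highest values of the study. The TET TKO difference was 1.71-fold (log2 0.78, SE 0.68, adjusted p = 0.448) in the fit of all groups and had an adjusted p of 2.65e-09 when only the 4 TET TKO libraries were fitted. Without the 4 WT and DNMT TKO libraries numbered 1, an alternative added after the values were seen, the adjusted p of that rise was 0.00397. In the same fit Utf1 was lower in DNMT TKO than in WT shEmpty (log2 -1.21, adjusted p = 0.00112, against -0.71 and 0.358 with all libraries). It was higher there in TET TKO than in WT shEmpty (log2 0.68, adjusted p = 0.0118, against 0.40 and 0.698 with all libraries).

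Fgf5, at chr5:98683203-98706049 on the plus strand, was close to the detection limit in every group. Its WT shEmpty libraries held 12, 15 and 9 reads, the WT shKap1 libraries 1 read each, and every DNMT TKO and TET TKO library 0 to 2 reads. In WT, 36 summed reads against 3 made the level 9.83 times lower with shKap1 (exact conditional 95% interval 3.11 to 49.9, for counting error only). DNMT TKO shEmpty, with 3 reads, was 12 times lower than WT shEmpty (interval 3.8 to 61.1), and TET TKO shEmpty, with 2 reads, 13.3 times lower (interval 3.43 to 114). WT shEmpty held 36 of the 49 Fgf5 reads, and without that group Fgf5 would not have reached the 16 reads needed for the test. A difference from WT shEmpty was therefore favoured by the filter, and no p is given for it. WT shEmpty was the highest of the 6 groups for Fgf5 and its 3 libraries overlapped none of the others. No fold is given for the knockdown in the mutant lines, where both groups had at most 3 reads.

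Otx2, the gene of a homeobox factor of the early epiblast at chr14:49277354-49287319 on the minus strand, differed between the lines more than it did on knockdown. Its shEmpty libraries held 1.06, 0.498 and 0.672 CPM in WT, 7.72, 6.04 and 5.75 CPM in DNMT TKO and 2.96 and 3.19 CPM in TET TKO. The 3 groups did not overlap. Otx2 was 9.05-fold higher in DNMT TKO than in WT (log2 3.18, SE 0.42, adjusted p = 2.01e-05) and 4.3-fold higher in TET TKO (log2 2.11, SE 0.48, adjusted p = 0.00373). With shKap1 the libraries held 3.36, 0.996 and 0.693 CPM in WT, 7.97, 5.74 and 9.31 CPM in DNMT TKO and 3.70 and 3.75 CPM in TET TKO. In WT, shKap1 was higher than shEmpty in each of the 3 same-numbered pairs, most of all in replicate 1. The WT knockdown gave a log2 value of 1.22 (SE 0.49, adjusted p = 0.0533), on the edge of the threshold. Its size depended on replicate 1, since it was 0.29 (adjusted p = 0.565) without WT shKap1 replicate 1 and 0.57 (adjusted p = 0.23) without the number 1 libraries of WT and DNMT TKO. It passed with DESeq2 (adjusted p = 0.015), with the filterByExpr filter (adjusted p = 0.0441) and with no composition scaling (adjusted p = 0.039). It also passed without WT shKap1 replicate 3 (log2 1.59, adjusted p = 0.00804), WT shKap1 replicate 2 (adjusted p = 0.0243), WT shEmpty replicate 1 (adjusted p = 0.0457) or DNMT TKO shKap1 replicate 2 (adjusted p = 0.0486). It did not pass with limma-voom (adjusted p = 0.146), RLE scaling (adjusted p = 0.0503), the filter of 1 read (adjusted p = 0.102) or the WT libraries fitted alone (adjusted p = 0.129). Nor did it pass without WT shEmpty replicate 2 (adjusted p = 0.173) or 3 (adjusted p = 0.128), or without any other single library. With the replicate block the adjusted p was 0.0521 over all libraries and 0.0398 (log2 1.15) with the split block. DNMT TKO and TET TKO gave 0.25 (adjusted p = 0.61) and 0.28 (adjusted p = 0.698).

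Lef1, at chr3:130813389-130927274 on the plus strand, encodes the factor that couples β-catenin to its target genes. It held 6.14, 9.67 and 9.79 CPM in the shEmpty libraries of DNMT TKO and 2.5, 2.92 and 3.49 CPM in its shKap1 libraries. The groups did not overlap and Lef1 fell 2.87-fold (log2 -1.52, SE 0.40, adjusted p = 0.00927). WT shEmpty held 8.55, 2.53 and 2.19 CPM, so replicate 1 was more than 3 times either other library, and WT shKap1 held 5.92, 3.68 and 4.48 CPM. The WT knockdown gave a log2 value of 0.14 (SE 0.41, adjusted p = 0.817) with all libraries and 0.98 (adjusted p = 0.0031) without WT shEmpty replicate 1. The difference of the Lef1 knockdown effect between DNMT TKO and WT was -1.66 (SE 0.58, adjusted p = 0.0612). It was -2.51 (adjusted p = 2.52e-05) without that library, and it passed with DESeq2 (adjusted p = 0.0187) and limma-voom (adjusted p = 0.0106). Between lines, DNMT TKO shEmpty exceeded WT shEmpty by 1.02 on the log2 scale (SE 0.39, edgeR adjusted p = 0.0501), on the edge of the threshold. The difference passed with DESeq2 (adjusted p = 0.0281), limma-voom (adjusted p = 0.00224), RLE scaling (adjusted p = 0.0462), no composition scaling (adjusted p = 0.0439) and the filterByExpr filter (adjusted p = 0.0399). It was 1.86 (adjusted p = 5.35e-06) without WT shEmpty replicate 1. TET TKO held 2.71 and 2.85 CPM with shEmpty and 2.36 and 2.62 CPM with shKap1.

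Zic2, at chr14:122874604-122879074 on the plus strand, held 64.6, 51.3 and 48.1 CPM in WT shEmpty and 62.4, 48.7 and 49.4 CPM in WT shKap1, which overlapped (log2 -0.03, SE 0.19, adjusted p = 0.923). DNMT TKO shEmpty held 39.0, 28.5 and 22.9 CPM and was 1.82-fold lower than WT shEmpty (log2 -0.86, SE 0.19, adjusted p = 0.00218). TET TKO shEmpty held 37.0 and 41.0 CPM, also below every WT shEmpty library (log2 -0.48, SE 0.21, adjusted p = 0.111). With the replicate block over all libraries the TET TKO difference was -0.56 (adjusted p = 0.00714). That block ties TET TKO numbers to WT numbers, although these libraries did not deviate together (r -0.038 to -0.034 in shEmpty). DNMT TKO shKap1 held 44.2, 30.1 and 32.9 CPM, higher than shEmpty in each of the 3 same-numbered pairs (log2 0.25, adjusted p = 0.345, or adjusted p = 0.0129 with the split block). TET TKO shKap1 held 51.1 and 52.0 CPM (log2 0.40, adjusted p = 0.219). That difference passed with the split block (adjusted p = 0.00204) and with the 4 TET TKO libraries fitted alone (adjusted p = 3.51e-05). The split block pairs TET TKO libraries by number, although same-numbered ones did not deviate together (r -0.026).

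Pou3f1 had 0 reads in all 16 libraries, a value that measures only part of the gene. The annotation used for counting listed Pou3f1 as a pair of overlapping records on the same strand, at chr4:124334050-124337899 and chr4:124334889-124337899. A read over exons of both is ambiguous and was dropped. The first record kept 840 of its 3850 exonic bases to itself, which also gave 0 reads, and the second kept 0. Pou3f1 was therefore not tested, and counts of tested members below are out of 8.

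In the edgeR fit of all libraries, 0 to 2 members were called in a comparison, and Sox2 was the only core member called. A gene was called where its change reached 2-fold and its adjusted p lay under 0.05. In the WT knockdown 2 of 8 members were called, Sox2 and Fgf5, both lower, beside 17.4% of all genes tested. The count was 3, with Otx2 added as higher, by DESeq2, with the filterByExpr filter and with no composition scaling, and 2 by limma-voom. Fgf5 entered the test through WT shEmpty, so it adds no support to this count, to the counts between lines or to the formative medians. In DNMT TKO it was 1 of 8, Lef1, lower, beside 12.5%, and in TET TKO 0 of 8 beside 12.5%, where 1 member had an unadjusted p below 0.05 and DESeq2 and limma-voom also called 0. The difference of the knockdown effect from WT called 0 of 8 for DNMT TKO beside 7.14% (2 at an unadjusted p below 0.05, and 1, Lef1, by DESeq2 and by limma-voom). It called 0 of 8 for TET TKO beside 4.21% (3 at an unadjusted p below 0.05, 0 by DESeq2 and 1, Fgf5, by limma-voom). Between lines with shEmpty, 2 of 8 were called in DNMT TKO beside 16.3%, and 2 of 8 in TET TKO beside 10.5%. In both they were Otx2, higher, and Fgf5, lower, and these comparisons share the WT shEmpty libraries. Lef1 was called as well in DNMT TKO with DESeq2 and limma-voom, which makes 3 of 8. By adjusted p alone the counts were 3 in the WT knockdown beside 45.7% of genes, 2 in DNMT TKO beside 35.3% and 1 in TET TKO beside 30.4%. They were 1 (beside 18.4%) and 0 (beside 9.69%) for the differences in effect of DNMT TKO and TET TKO, and 5 (beside 43.6%) and 2 (beside 27.2%) for the lines with shEmpty. The median log2 change of the 4 core genes was -0.28 in the WT knockdown, -0.18 in DNMT TKO and -0.03 in TET TKO, where the median of all genes was -0.01, 0.02 and -0.01. Leaving out single libraries, the core median was -0.35 to -0.23 in WT and -0.37 to -0.14 in DNMT TKO, with -0.37 without DNMT TKO shKap1 replicate 1. Medians of the 4 formative genes tested, Fgf5 among them, rested on single libraries and set no direction in WT or DNMT TKO. The WT value of 0.06 was 0.54 without WT shEmpty replicate 1 and -0.16 without WT shEmpty replicate 3, and the DNMT TKO value of -0.08 was 0.39 without DNMT TKO shEmpty replicate 1 and -0.44 without DNMT TKO shEmpty replicate 3. In TET TKO it was 0.34, and 0.21 to 0.36 with single libraries left out. Besides Fgf5, the values there were 0.28 for Otx2, -0.16 for Lef1 and 0.40 for Zic2. In the shEmpty comparison the core median was -0.22 in DNMT TKO (-0.27 to -0.18 with single libraries left out) and 0.02 in TET TKO (-0.032 to 0.12). The formative median there, with Fgf5 counted, was 0.08 in DNMT TKO and -0.54 in TET TKO, or 0.56 and -0.057 without WT shEmpty replicate 1 and -0.14 and -0.76 without WT shEmpty replicate 3. Otx2, Lef1 and Zic2 had 3.18, 1.02 and -0.86 in DNMT TKO and 2.11, -0.61 and -0.48 in TET TKO. Without Fgf5 the middle value was therefore 1.02 in DNMT TKO and -0.48 in TET TKO.

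Groups did not overlap for 4 of 8 members in the WT knockdown, beside 54.4% of all genes. The 4 were Sox2, Sall4, Pou5f1 and Fgf5, all lower. They did not overlap for 3 of 8 in DNMT TKO, beside 44.7%, and for 7 of 8 in TET TKO, beside 69.9%, a comparison of 2 libraries with 2. In DNMT TKO against WT with shEmpty, 5 of 8 did not overlap beside 50.8%, and in TET TKO against WT 4 of 8 beside 53.1%. With 8 members, 1 gene moves such a share by more than 10 percentage points, so nothing is read from them. Chromosomes that carry a tested member had median differences of -0.088 to -0.0047 on the log2 scale between each mutant line and WT, over their genes of at least 1 CPM.

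**Figure D2:**
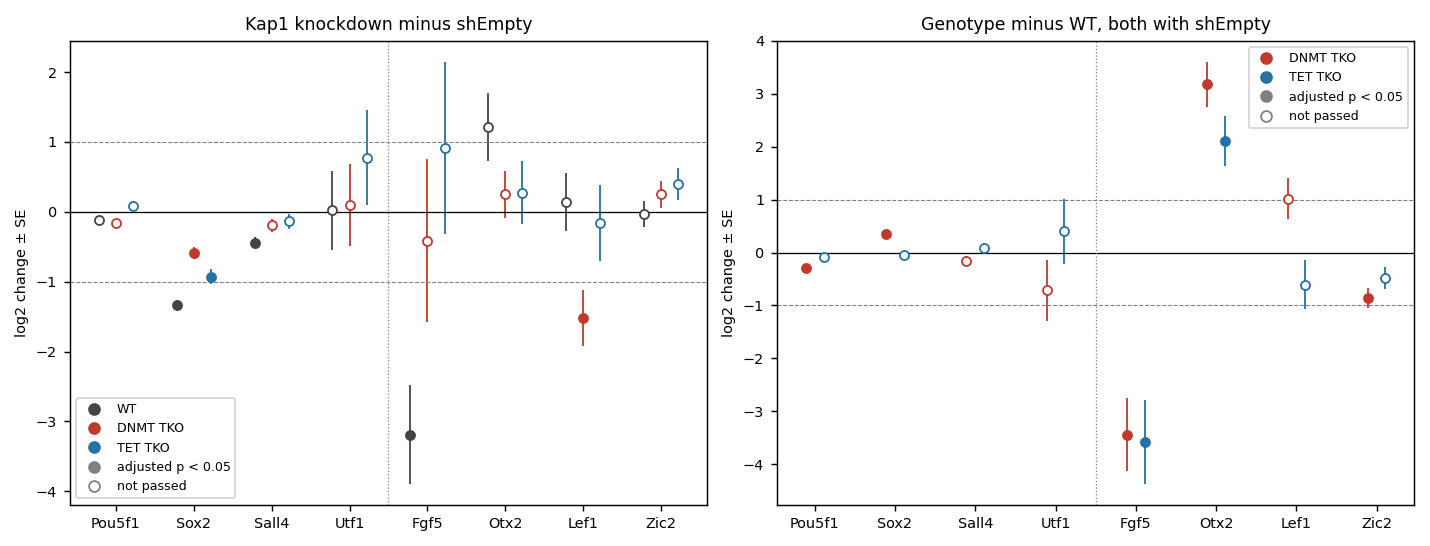
Fitted log2 changes of 8 members (vertical axis, points, with bars of 1 SE), for the Kap1 knockdown in each genotype (left) and for each mutant line against WT with shEmpty (right). Core genes are left of the dotted line, dashed lines mark 2-fold, and filled points have an edgeR adjusted p below 0.05. Sox2 is lower in all 3 knockdowns, while between lines Otx2, at 3.18 and 2.11, is the highest value and Fgf5, with 2 or 3 reads in each mutant group, the lowest.

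Genes that work with the core members moved down more often than up in WT. These lists were put together with earlier results of the data known and are given as counts. Of 17 partners in the core network, 10 fell and 2 rose by adjusted p in the WT knockdown, 6 fell and 1 rose in DNMT TKO, and 6 fell and 3 rose in TET TKO, with medians of -0.40, -0.22 and -0.34. For all genes 22.7% fell and 23% rose by adjusted p in WT, 15.6% and 19.7% in DNMT TKO, and 15.1% and 15.3% in TET TKO. The largest fall among partners called in WT was that of Nr0b1, the orphan receptor DAX1, from 91.5 ± 24.8 to 10.2 ± 1.84 CPM (log2 -3.16, SE 0.23, adjusted p = 1.3e-07), and no partner was called higher there. Of 11 targets of OCT4 and SOX2, 7 fell and 1 rose in WT, 2 fell and 2 rose in DNMT TKO, and 4 fell and 1 rose in TET TKO. Spp1, the secreted phosphoprotein osteopontin, was the one target called in WT, where it fell from 1439 ± 103 to 570 ± 15.9 CPM (log2 -1.34, SE 0.07, adjusted p = 1.42e-10). In the other lines it had log2 values of 0.24 (adjusted p = 0.0141) in DNMT TKO and -0.19 (adjusted p = 0.123) in TET TKO. Nanog, which belongs to both lists and to the naïve one, fell from 1086 to 648 CPM in WT (log2 -0.75, SE 0.10, adjusted p = 1.87e-05), with values of -0.21 (adjusted p = 0.116) in DNMT TKO and -0.30 (adjusted p = 0.074) in TET TKO. It is named here after its values were seen. Other genes were shared as well: Tdgf1, Dppa4 and Zscan10 by partners and targets, Zfp42 and Fgf4 by targets and naïve genes, and Nr0b1 by partners and naïve genes. The counts of these lists are therefore not separate results. Of 16 naïve genes tested, 13 fell and 1 rose in WT, 11 fell and 0 rose in DNMT TKO, and 10 fell and 0 rose in TET TKO, with medians of -0.81, -0.46 and -0.63. Tcl1, a coactivator of AKT, had the largest fall called in WT, from 57.7 ± 14.2 to 2.48 ± 0.73 CPM (log2 -4.54, SE 0.20, adjusted p = 3.75e-10).

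Other genes of the formative and primed states moved in both directions. Of 26 tested, 12 fell and 7 rose by adjusted p in the WT knockdown, 7 fell and 6 rose in DNMT TKO, and 3 fell and 7 rose in TET TKO. Their median log2 change was -0.38, -0.12 and -0.10. Wnt8a, a WNT ligand of the early embryo, showed the largest rise called in WT, from 1.49 ± 0.502 to 47.6 ± 13 CPM (log2 5.04, SE 0.49, adjusted p = 3.56e-06). Etv4, an ETS factor downstream of FGF, showed the largest fall, from 86.7 ± 6.32 to 11.2 ± 0.692 CPM (log2 -2.96, SE 0.15, adjusted p = 5.86e-10). Etv4 fell in DNMT TKO too (log2 -2.16, adjusted p = 3.09e-08) and did not pass in TET TKO (log2 -0.18, adjusted p = 0.455). Between lines with shEmpty, 12 of the 26 were lower and 7 higher in DNMT TKO, and 9 lower and 3 higher in TET TKO, with medians of -0.66 and -0.55. Of all genes, 23.1% were lower and 20.5% higher in DNMT TKO, and 13.1% and 14.1% in TET TKO. Dnmt3a and Dnmt3b are on this list and are deleted in DNMT TKO, so the list is not independent of the genotype.

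Pathways that act on the members were described in the same way. Of 11 other FGF ligands and receptors, 6 fell and 3 rose by adjusted p in WT, 3 fell and 4 rose in DNMT TKO, and 4 fell and 2 rose in TET TKO. Fgf17 fell most among those called in WT (log2 -4.54, SE 0.39, adjusted p = 4.03e-08) and Fgf1 rose most (log2 2.40, SE 0.44, adjusted p = 0.000326). Of 17 genes that respond to ERK, 7 fell and 5 rose in WT, 6 fell and 2 rose in DNMT TKO, and 1 fell and 4 rose in TET TKO. Dusp5, a nuclear ERK phosphatase, rose from 5.68 ± 0.932 to 19.3 ± 1.6 CPM in WT (log2 1.76, SE 0.15, adjusted p = 2.81e-08). Of 13 targets of WNT and TCF, the family of LEF1, 3 fell and 1 rose in WT, 8 fell and 0 rose in DNMT TKO, where Lef1 fell too, and 3 fell and 2 rose in TET TKO. The median of the 13 was -0.10 in WT, -0.70 in DNMT TKO and 0.02 in TET TKO. Notum, a secreted WNT inhibitor, had the largest fall of these in WT (log2 -1.47, SE 0.12, adjusted p = 3.52e-08) and fell in DNMT TKO as well (log2 -1.18, adjusted p = 6.65e-07). In shEmpty, 6 of the 13 were higher and 1 lower in DNMT TKO than in WT, and 0 were higher and 7 lower in TET TKO. Of 26 tested paralogues of the members in the POU, SOX, SALL, OTX, ZIC and TCF families, 12 fell and 8 rose in WT, 6 fell and 5 rose in DNMT TKO, and 4 fell and 3 rose in TET TKO. The extremes called in WT were Pou4f2, which fell (log2 -2.43, SE 0.50, adjusted p = 0.00118), and Pou3f4, which went from a mean of 0.0119 CPM to 0.24 CPM (adjusted p = 0.00549), too near the detection limit for a fold.

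The genes whose log2 CPM followed a member most closely over the 16 libraries were sought among 14051 genes of at least 1 CPM on average. The correlations are descriptions over 16 libraries that share 6 groups and, in part, replicate numbers, given as Pearson r and then Spearman rho. Sox2 was followed by Larp4 (0.987 and 0.956) and by Nr5a2, a nuclear receptor of naïve cells (0.984 and 0.959). Pou5f1 was followed by Mri1 (0.966 and 0.947) and Ier2 (0.966 and 0.944), and Sall4 by Enoph1 (0.969 and 0.965) and BC032203 (0.950 and 0.953). Utf1 was followed by Zdhhc4 (0.961 and 0.815) and Txn2, the mitochondrial thioredoxin (0.953 and 0.915). Among the formative genes, Otx2 was followed by Btbd11 (0.954 and 0.929) and Actr3b (0.953 and 0.932), Zic2 by 1700012B15Rik (0.957 and 0.929) and Id3 (0.944 and 0.947), and Lef1 by Gstm2-ps1 (0.852 and 0.735) and Bace1 (0.828 and 0.80). For Fgf5 the closest were E2f2 (0.918 and 0.667) and Qtrtd1 (0.912 and 0.597), with the lower rank correlations of a gene that held more than 2 reads a library in WT shEmpty alone. No member was among the closest genes of another. Between members, Pou5f1 had r of 0.78 with Utf1 and 0.74 with Zic2, and -0.29 with Sox2. Otx2 had r of -0.66 with Pou5f1 and -0.66 with Fgf5.

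At the gene start, H3K27me3 was found at formative members and at none of the core, while H3K4me3 was found at all members. A member counted as marked when a peak of both replicates touched the window of 1 kb on each side of its start. H3K4me3, found at active and poised promoters, marked all 4 core and all 5 formative members, where 69.3% of the 20321 genes tested were marked. H3K27me3, the mark of Polycomb repressive complex PRC2, was at 0 of 4 core and 4 of 5 formative members, where 16.1% of all genes were marked. The 4 were Fgf5, Otx2, Lef1 and Pou3f1, each with both marks, as were 13.3% of all genes. Zic2 was the one formative member without H3K27me3, and it was also the formative member with the highest RNA level per kb. Pou5f1, Sox2, Sall4 and Zic2 had H3K4me3 peaks of 6436 to 8967 bases, wider than those of the other members. All 8 of these peaks carry the same score of 3100, as does Utf1 in replicate 2, so scores do not rank these members. The Otx2 H3K4me3 peaks were 1183 and 1944 bases wide, with scores at percentile 29.4 and 42.2 of the peaks of their replicate. The H3K27me3 peaks of Pou3f1 were the widest of the members at 8799 and 15399 bases, at percentile 97.4 and 99.3. The peaks come from WT cells alone, so the marks in the mutant lines were not measured.

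**Figure D3:**
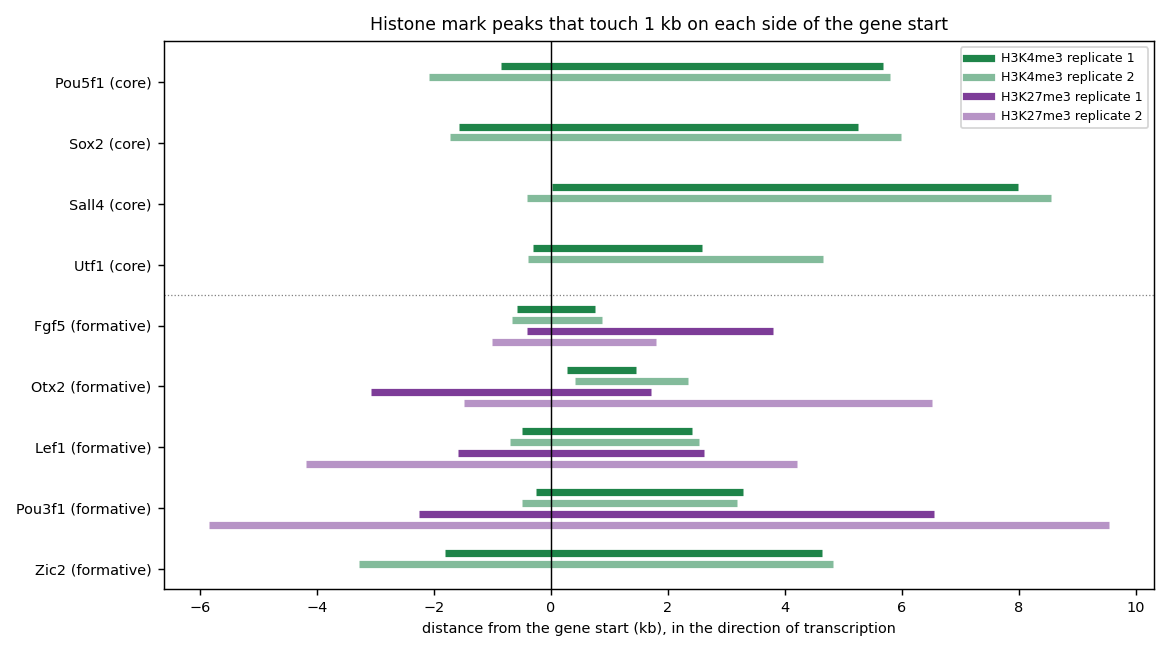
Extent of the H3K4me3 and H3K27me3 peaks that touch 1 kb on each side of each member's start, in kb along the direction of transcription (horizontal axis), for replicate 1 (dark) and replicate 2 (light). Core members are above the dotted line. H3K4me3 is present at all 9 members and H3K27me3 at Fgf5, Otx2, Lef1 and Pou3f1 only.

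KAP1 itself was not found at the start of a member. The deposited set of 26553 KAP1 regions touched the window of 1 kb around 0 of 9 members and around 4.4% of all genes tested. At so low a share, 0 of 9 does not set the members apart from other genes. The nearest KAP1 region was 26.7 kb from the start of Pou5f1, 41.9 kb from Sall4, 42.2 kb from Fgf5, 49.7 kb from Zic2, 67.9 kb from Utf1, 88.2 kb from Lef1, 131 kb from Sox2, 168 kb from Pou3f1 and 229 kb from Otx2. The median distance over all genes was 51.4 kb. Lef1 was the one member with a KAP1 region within the gene body. H3K9me3 regions that depended on KAP1 were at the start or within the body of 0 of 9 members, and at the start of 1.02% of all genes. The shares of all genes with a KAP1 or H3K9me3 region within the body were not computed.

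5hmC was compared between shKap1 and shEmpty in WT cells at the mark regions that touch the members' starts. Only replicate 1 could be used, so there is no replicate check, and intervals cover counting error alone. Of 9 H3K4me3 regions, 5 had a higher input-corrected 5hmC level with shKap1, and of 4 H3K27me3 regions 3 did. These counts depended on the scaling, since they were 2 of 9 and 1 of 4 when libraries were scaled to reads in H3K4me3 regions. With replicate 2 read by its labels they were 2 of 9 and 2 of 4, and the median of all H3K4me3 regions was -0.21. The median log2 change was 0.04 over the 9 regions and 0.17 over the 4, against 0.39 over all 28066 H3K4me3 regions and 0.27 over all 19316 H3K27me3 regions. The largest value was at Pou5f1, whose region held 35 reads with shEmpty and 61 with shKap1 in the 5hmC libraries and 129 and 133 reads in the inputs (log2 1.08, 95% interval 0.39 to 1.76). It was the only one of the 13 regions whose interval did not include 0 with scaling to reads in all region sets. From its lower bound of 0.388, that interval took in the median of 0.391 over all H3K4me3 regions. It was not computed for the other scaling. Sox2, with 51 and 52 reads of 5hmC and 136 and 193 of input, had -0.14 (-0.78 to 0.50). The lowest value was at the Otx2 H3K4me3 region (log2 -0.98, -2.37 to 0.40, from 16 and 10 reads of 5hmC). At this depth, with 10 to 156 reads of 5hmC a region, changes smaller than these intervals were not detectable. The median over the members' H3K4me3 regions depended on the scaling: it was -0.35 when libraries were scaled to reads in H3K4me3 regions, where the median of all such regions was 0.00.

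**Figure D4:**
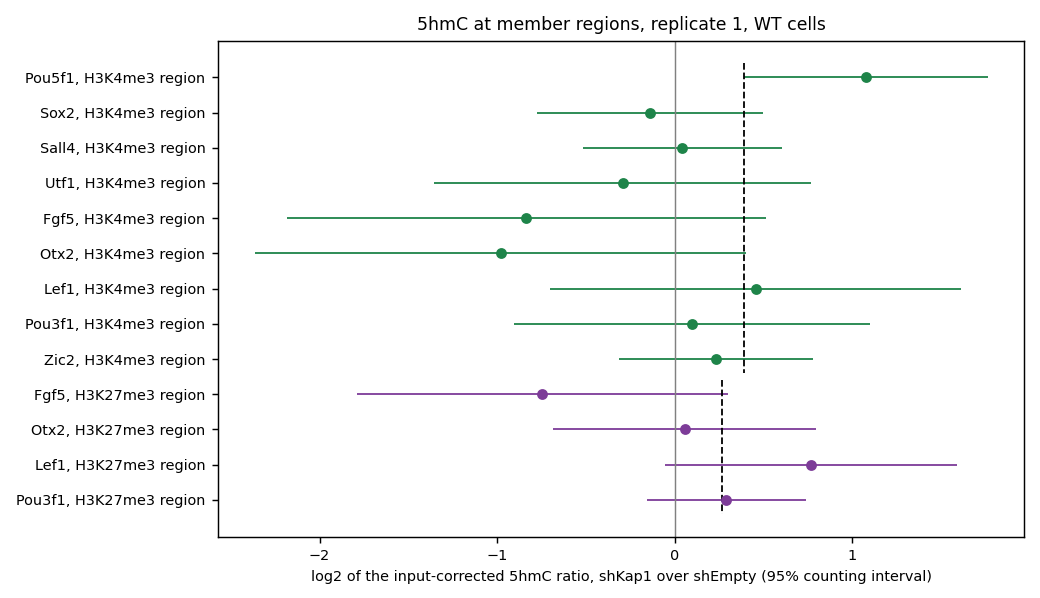
log2 of the ratio of input-corrected 5hmC in shKap1 over shEmpty (horizontal axis) at 9 H3K4me3 (green) and 4 H3K27me3 (purple) regions of the members, from replicate 1 of WT cells. Bars are 95% counting intervals and dashed lines the medians of all regions, 0.39 and 0.27. Pou5f1 is the only region whose interval lies above 0, and that interval includes the dashed H3K4me3 median. At every region shown, scaled 5hmC reads lay below scaled input reads with both hairpins.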

How the data were processed

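RNA-seq, hMeDIP-seq and ChIP-seq of mESCs labelled J1 were used. By the study's methods, the DNMT TKO and TET TKO cells were obtained from different outside groups. The gene counts were deposited by the authors, made with featureCounts on the reverse strand over exons at a mapping quality of at least 10 (build mm9). The submitters' processing notes list HISAT2 2.0.1, but the alignment file named in the count headers has TopHat's default name, and which aligner was used is not settled here. Peak scores were deposited by the authors for each replicate against its input. The region counts of 5hmC were made by the authors with bedtools multicov. Counts over repeats were not used here.

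The members and lists were chosen with earlier results of these data known. The 20321 genes whose reads summed to 16 or more entered 1 quasi-likelihood fit of 6 groups in edgeR 4.0.16 (TMM scaling, robust), with Benjamini-Hochberg adjustment over all of them. Each SE of an edgeR change is its absolute log2 value divided by the square root of the F statistic. DESeq2 1.42.0 and limma 3.58.1 served as alternatives in R 4.3.3. Named besides the members were Trim28, the 2 closest genes of each member, and of each list the largest rise and fall called in the WT knockdown. Correlations used log2 CPM with a prior count of 2. Gene symbols matched 37205 of 37991 records, and Tfcp2l1, Sox1, Map2, Tfap2c and Usp17la were not analysed here.

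Same-numbered libraries deviated together in shEmpty and shKap1 of WT (r 0.27 to 0.46), in those of DNMT TKO (0.19 to 0.56) and in shEmpty of both lines (0.30 to 0.49), but not in TET TKO. The numbers thus pair WT and DNMT TKO libraries by their values, since no label says what a number marks. Alternatives changed the scaling, filter, tool, threshold, libraries and block. The split block gave TET TKO libraries numbered 2 a block of their own. It left those numbered 1 with the WT and DNMT TKO libraries numbered 1. Both the split block and the fit without the number 1 libraries of WT and DNMT TKO were added after the values were seen. The 5hmC log2 change added 1 read, was scaled to reads in all region sets and corrected for input. Labels and file names of hMeDIP replicate 2 gave different roles, so it entered only as an alternative. Promoters were read from the NCBIM37 genome (Python 3.11.15, pandas 2.3.3).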

Additional observations from a re-analysis of the deposited data

Results flagged for a closer look

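The Kap1 knockdown lowered Sox2 less in DNMT TKO than in WT. The test of the difference itself gave 0.747 on the log2 scale (SE 0.12, edgeR adjusted p = 0.0002), with libraries going from 404 to 429 CPM to 248 to 296 CPM in DNMT TKO and from 299 to 380 CPM to 125 to 134 CPM in WT. Sox2 thus started higher in DNMT TKO. It was under 2-fold. The remaining Trim28 level, 427 ± 91.5 CPM in DNMT TKO shKap1 and 165 ± 21.9 CPM in WT shKap1 (SD, n = 3 each), moved with it, and its part was not tested. By edgeR with all libraries, TMM scaling and the filter of 16 reads, no other member passed the test of a difference in knockdown effect. The Lef1 difference for DNMT TKO passed with DESeq2, limma-voom and the filterByExpr filter, and the Sox2 difference for TET TKO with DESeq2 and with no composition scaling. The Fgf5 difference for TET TKO passed with limma-voom, but Fgf5 entered the test only through WT shEmpty, so that pass adds no support. With the split block, the Sall4 differences for both lines and the Zic2 difference for TET TKO passed. Without the number 1 libraries of WT and DNMT TKO, the Sall4 and Lef1 differences passed for both lines and those of Sox2, Pou5f1 and Zic2 for TET TKO. That fit and the split block were added after the values were seen. Leaving those libraries out gave WT and DNMT TKO as few libraries a group as TET TKO. Over all genes, those past adjusted p in edgeR then rose from 1970 to 5056 for TET TKO and from 3737 to 6111 for DNMT TKO. The passes of members in that fit are therefore no separate support. No group had the 4 libraries that a test of single outlying libraries needs.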

How the results depend on the processing

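Of 56 member changes, 14 had an adjusted p below 0.05. Of these, 3 were of Fgf5 against WT shEmpty, which the read filter favoured, and under 26 alternatives each (286 values) 0 of the other 11 lost it and 0 turned direction. Members called in WT became 3, by adding Otx2, with DESeq2, filterByExpr or no composition scaling and without any 1 of 4 libraries, and by adding Sall4 with no fold threshold. Members called in DNMT TKO became 2 with a 1.5-fold or no fold threshold, and in TET TKO 1, each by adding Sox2. For the knockdown effect of DNMT TKO minus WT the count was 1 in place of 0 with filterByExpr, limma-voom, DESeq2, a 1.5-fold or no fold threshold, and without the number 1 libraries. For TET TKO minus WT it was 1 with limma-voom. For DNMT TKO minus WT in shEmpty it was 5 with no fold threshold and 4 without the number 1 libraries, against 2. Leaving out single libraries gave 0 to 1 for the DNMT TKO difference in effect (1 without WT shEmpty replicate 1 or DNMT TKO shEmpty replicate 1) and 2 to 4 for DNMT TKO minus WT (4 without DNMT TKO shEmpty replicate 1). The replicate block over all libraries left 2 called in WT, 1 in DNMT TKO and 0 in TET TKO, it changed no call of 2-fold, and calls by adjusted p that it changed stand beside Pou5f1, Sall4 and Zic2. With the split block, chosen after seeing the data, Otx2 (log2 1.15, adjusted p = 0.0398) was called in WT besides Sox2 and Fgf5, and Zic2 and Sall4 differences of under 2-fold also passed.

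Only changes that had not passed turned direction. Zic2 in WT was 0.048 without composition scaling. Without the number 1 libraries, Fgf5 in DNMT TKO was 0.13, Utf1 in DNMT TKO minus WT effect -0.060, and Sox2 and Lef1 in TET TKO minus WT 0.068 and 0.24. With the split block, Utf1 and Sall4 in TET TKO minus WT were -0.38 and -0.087. That block sets TET TKO against the level of the WT libraries numbered 1, so these values follow from its coding. Leaving out single libraries, ranges spanned 0 for WT Utf1 (-0.16 to 0.30), Zic2 (-0.14 to 0.10) and Lef1 (-0.20 to 0.98), for DNMT TKO Utf1 (-0.73 to 0.87) and Fgf5 (-0.97 to 0.52), for the effect difference of Utf1 in DNMT TKO (-0.75 to 0.84) and of Lef1 in TET TKO (-1.15 to 0.037), and for Sox2 (-0.12 to 0.063) and Lef1 (-0.95 to 0.24) in TET TKO minus WT. Beyond that coding and fewer libraries or genes, the cause was not tested. Marks at members did not leave 8 or 9 for H3K4me3 and 4 for H3K27me3 under any alternative. The 5hmC medians of 0.04 and 0.17 turned to -0.35 and -0.215 when scaled to H3K4me3-region reads, and to -0.19 and -0.053 with replicate 2 read by its labels. Depth limits Fgf5, at 0 to 2 reads a library outside WT shEmpty.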
